A study of Mus musculus with 18 samples.

Results

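The 9 genes described here, Spi1, Runx1, Cebpa, Irf8, Mef2a, Mef2c, Maf, Bhlhe41 and Klf2, encode transcription factors of the myeloid lineage. They were taken by symbol from the 53465 genes of the deposited table, and all 9 were found once and passed the filter on low counts in every comparison. The libraries were RNA-seq libraries of microglia and macrophages that were sorted from the injured spinal cord of 9 mice, so that each mouse gave a microglia library and a macrophage library. All mice were adult female C57BL/6J animals with a contusion injury, and none was uninjured. At 48 h after injury, 3 mice received PBS into the cord, 3 received recombinant IL-13 (rIL-13) and 3 received recombinant IL-4 (rIL-4), and cells were collected 24 h later. Microglia were gated as CD45low CD11b+ F4/80+ cells and macrophages as CD45high CD11b+ F4/80+ cells, so the identity of the sorted cells rests on the amount of CD45. The labels name no deleted gene and no transgene. The question asked of these genes was how their levels differed between the cell types, and how far each cytokine changed them.

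PU.1, the product of Spi1, opens chromatin at myeloid genes and is required for both microglia and macrophages. It acts beside RUNX1, which works earlier in blood cell formation, beside C/EBPα, which drives granulocyte and monocyte fate, and beside IRF8, which binds DNA with PU.1 and is needed for microglia and monocytes. MEF2A and MEF2C are MADS box factors, and MEF2C is known to restrain the inflammatory response of microglia. MAF limits self-renewal of macrophages, BHLHE41 represses transcription at E-boxes and is known for its part in the identity of resident macrophages, and KLF2 holds myeloid cells in a quiescent state. IL-4 and IL-13 share the receptor subunit IL-4Rα and signal through STAT6.

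Library totals lay between 35961305 and 45849829 counts, and the lowest count of any of the 9 genes in any library was 169. Levels are given in CPM, the counts of a gene relative to the library total after TMM scaling, which corrects for a few very abundant genes. The labels of the cell types were checked with marker lists. Of 8 microglia markers, 8 were higher in microglia than in macrophages after PBS, 7 after rIL-13 and 8 after rIL-4, and of 7 markers of monocyte-derived macrophages, 7, 6 and 5 were higher in macrophages. No microglia marker was at 0 in any macrophage library, where their summed level was 2618 to 3736 CPM after PBS, 1064 to 2262 after rIL-13 and 465 to 849 after rIL-4. The summed level of 8 fibroblast and pericyte markers was 206 to 7279 CPM in microglia and at most 9.17 CPM in macrophages, and that of 6 endothelial markers was 715 to 2350 CPM in microglia and 44.2 to 429 CPM in macrophages. The rIL-13 microglia library of mouse 6 stood apart with 7279 CPM of fibroblast and pericyte markers, where the other 8 microglia libraries had at most 3188 CPM. In bulk libraries, fewer cells of a type and less RNA per cell cannot be told apart.

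Sequence before the start of the gene is shown for Bhlhe41, Mef2c and Irf8, the 3 genes that fell together with rIL-4 in macrophages. The windows are RefSeq's (GRCm38.p6), which held an entry for 7 of the 9 genes, and each is given on the gene's strand, 5′ to 3′, for the bases that lie before the annotated gene. Capitals mark a match to any of 9 motifs searched on both strands in 250 bases before to 50 after RefSeq's start of transcription, from which positions are counted.
Bhlhe41, chr6:145865559-145865670, minus strand: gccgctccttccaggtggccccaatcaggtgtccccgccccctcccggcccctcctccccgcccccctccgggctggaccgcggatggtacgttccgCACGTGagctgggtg
Mef2c, chr13:83503784-83504033, plus strand: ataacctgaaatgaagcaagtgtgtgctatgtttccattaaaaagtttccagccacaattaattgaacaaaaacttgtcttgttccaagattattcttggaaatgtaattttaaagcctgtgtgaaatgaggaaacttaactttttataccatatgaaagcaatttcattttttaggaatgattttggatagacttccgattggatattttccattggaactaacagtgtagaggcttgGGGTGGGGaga
Irf8, chr8:120736108-120736357, plus strand: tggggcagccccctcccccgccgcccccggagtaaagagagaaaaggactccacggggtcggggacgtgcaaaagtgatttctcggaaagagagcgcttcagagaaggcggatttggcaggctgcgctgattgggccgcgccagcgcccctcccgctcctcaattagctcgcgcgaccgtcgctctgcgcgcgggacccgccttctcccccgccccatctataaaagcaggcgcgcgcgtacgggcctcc
The motifs were PU.1 (GAGGAAGT), MEF2 (CTA and TAG around any 4 bases), MAF (TGCTGA), E-box (CACGTG), RUNX (TGTGGT), C/EBP (TTGCNNAA), STAT6 (TTC and GAA around any 4 bases), IRF (GAAA repeated after any 2 bases) and KLF (GGGTGNGG), in which N is any base, and no match overlapped another. The Bhlhe41 window held an E-box, the sequence that BHLHE41 itself binds, at position -153, which was present in 7.15% of 32817 windows of 300 bases. The Mef2c window at the first start held a KLF match at position -11, a motif present in 16.6% of windows, and 35.7% of its bases were G or C, where the Bhlhe41 window had 70.7% and the median of all windows was 52.7%. The Irf8 window at the first start held none of the 9 motifs. A later window of Irf8 and a later window of Mef2c each held a MAF match (19.5% of windows), at positions -157 and -104. A STAT6 match, present in 6.94% of windows, was in none of the 11 windows of these genes. The windows of Klf2 and Mef2a each held a MEF2 match (CTAAATTTAG and CTAAAAATAG, 3.69% of windows), and a window of Runx1 held RUNX matches and an E-box. A match is a description of the letters and not of binding.

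Spi1 was the most abundant of these transcripts in every group. Per kilobase of merged exons, which allows genes to be compared, PBS microglia had 81.6 ± 4.82 CPM per kb of Spi1 (SD, n = 3) and PBS macrophages 130 ± 12.4. Irf8 came next, with 37.3 ± 6.14 CPM per kb in PBS microglia and 48.9 ± 2.79 in PBS macrophages. In PBS microglia Bhlhe41 followed with 17.3 ± 3.79 CPM per kb, and Runx1 was the lowest with 2.19 ± 0.312. In PBS macrophages Mef2c was the lowest with 2.58 ± 0.531 CPM per kb. The MEF2 factors therefore stood in a different proportion in the 2 cell types: the ratio of Mef2c to Mef2a per kb was 1.29 ± 0.279 in PBS microglia and 0.214 ± 0.0367 in PBS macrophages. It was 0.725 ± 0.151 and 0.132 ± 0.0495 after rIL-13, and 0.493 ± 0.201 and 0.0767 ± 0.0196 after rIL-4. These ratios describe the libraries and were not tested.

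**Figure D1:**
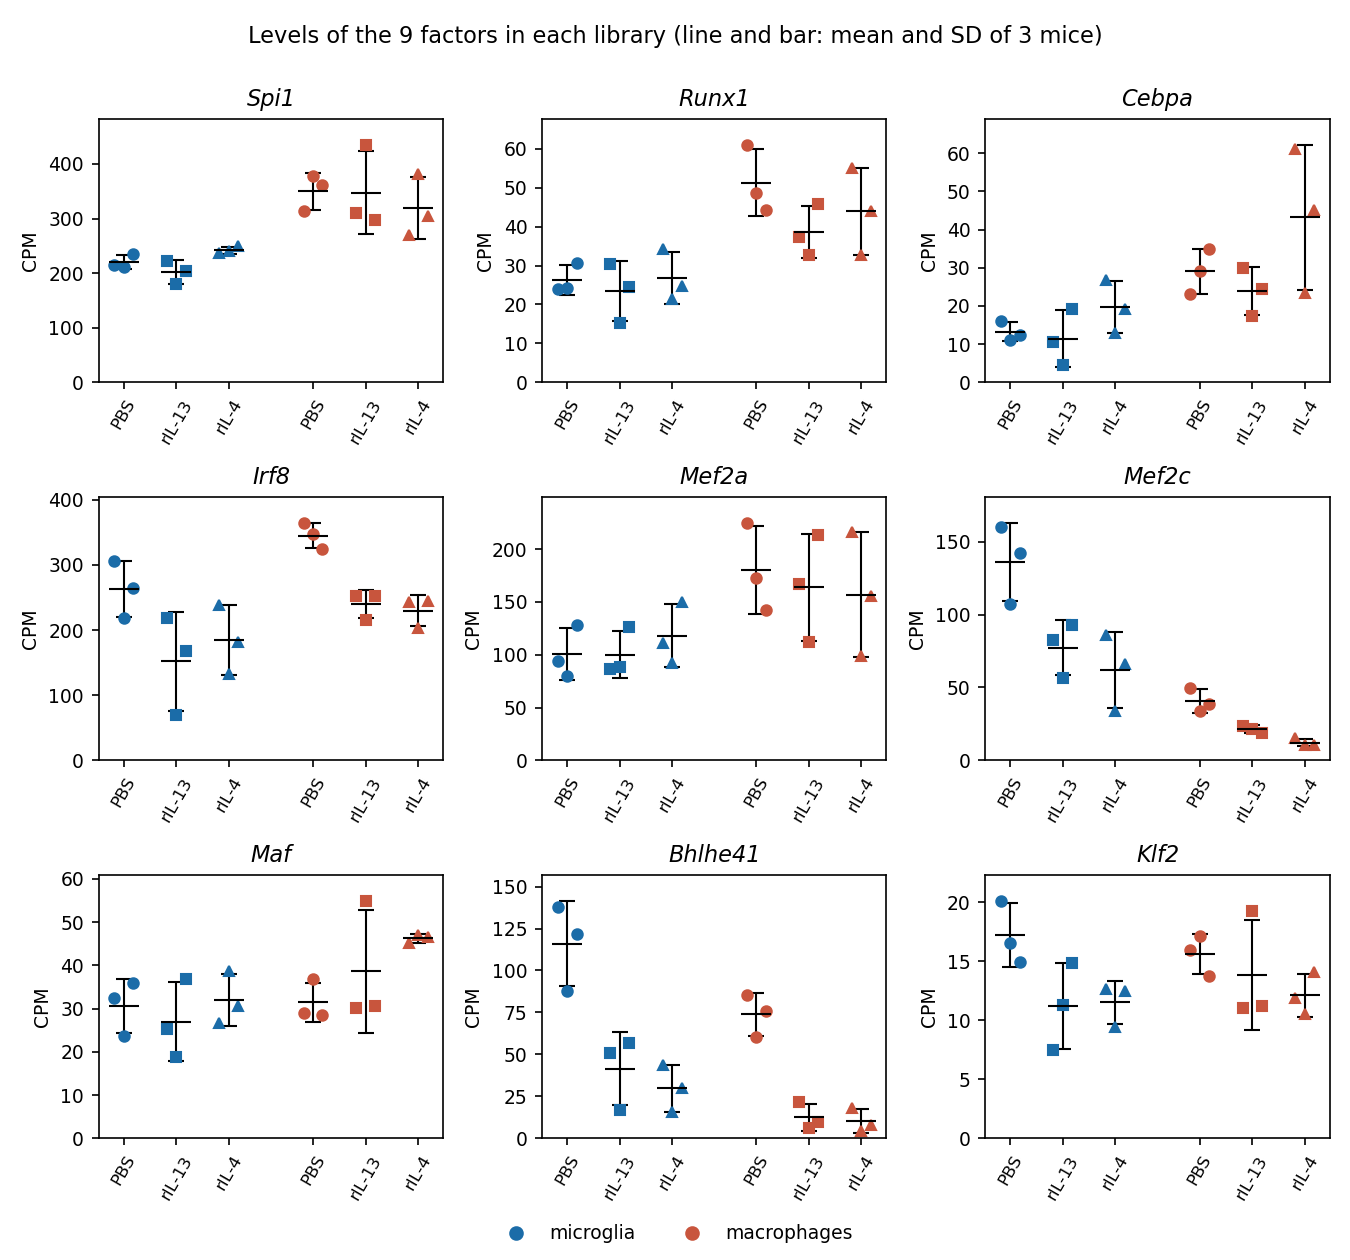
Level of each of the 9 genes in CPM (vertical axes, from 0) in each of the 18 libraries, with microglia in blue and macrophages in red, and the mean and SD of the 3 mice of a group as a line and bar. For Mef2c and Bhlhe41, every library of either cytokine was below every PBS library of the same cell type, while Spi1 stayed between 180 and 435 CPM in all groups.

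After PBS, 7 of the 9 genes passed the test (edgeR, quasi-likelihood) of one cell type against the other, where 40.9% of the 14715 genes tested did. Mef2c and Bhlhe41 were higher in microglia, as were 24.5% of all genes, and Spi1, Runx1, Cebpa, Irf8 and Mef2a were higher in macrophages, as were 16.4%. The median log2 difference over the 9 genes was -0.43, beside 0.04 over all genes. Maf and Klf2 did not pass the test. The 7 genes were also those whose libraries did not overlap, as was found for 54.0% of all genes.

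Mef2c (ENSMUSG00000005583.16, chromosome 13 from 83504034 to 83667080, plus strand) had 160, 107 and 142 CPM in the PBS microglia of mice 1, 2 and 3, and 49.8, 33.5 and 38.5 CPM in their macrophages. Every microglia library was above every macrophage library. The difference was 1.71 ± 0.21 on the log2 scale (SE, adjusted p = 2.66e-04, edgeR), the largest among the 9 genes in this comparison. Bhlhe41 (ENSMUSG00000030256.11, chromosome 6 from 145858243 to 145865558, minus strand) had 138, 87.8 and 122 CPM in microglia and 85.2, 60.3 and 75.9 CPM in macrophages, a log2 difference of 0.61 ± 0.20 (adjusted p = 0.0376, edgeR). Its groups were close, with the lowest microglia library at 87.8 CPM and the highest macrophage library at 85.2 CPM, and the call was lost in 4 of 6 fits that left out a library (the PBS microglia of mouse 1, adjusted p = 0.130, or of mouse 3, 0.0995, or the PBS macrophages of mouse 2, 0.138, or of mouse 3, 0.102). The microglia marker list moved the same way, with a median log2 difference of 1.86 over its 8 genes. Mef2c is also expressed by endothelial cells, whose 6 markers were all higher in microglia libraries, and the part of such RNA in the difference was not tested.

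Spi1 (ENSMUSG00000002111.8, chromosome 2 from 91082390 to 91115756, plus strand) had 214, 211 and 235 CPM in PBS microglia and 313, 377 and 361 CPM in PBS macrophages, a log2 difference of -0.70 ± 0.11 (adjusted p = 0.00109, edgeR). Runx1 (ENSMUSG00000022952.16, chromosome 16 from 92601466 to 92826149, minus strand) had 24.0, 24.2 and 30.6 CPM in microglia and 61.0, 48.6 and 44.2 CPM in macrophages, which was 1.95-fold higher in the latter (SE of the log2 difference 0.19, adjusted p = 0.00273). Cebpa (ENSMUSG00000034957.10, chromosome 7 from 35119293 to 35121928, plus strand) had 16.1, 11.2 and 12.5 CPM in microglia and 23.2, 29.2 and 35.0 CPM in macrophages, 2.20-fold higher in the latter (-1.17 ± 0.22, adjusted p = 0.00266). For all 3 genes, no microglia library reached the lowest macrophage library. Mef2a (ENSMUSG00000030557.17, chromosome 7 from 67231163 to 67372858, minus strand) had 94.1, 80.1 and 128 CPM in microglia and 225, 173 and 142 CPM in macrophages, so that it differed in the direction opposite to Mef2c (-0.87 ± 0.22, adjusted p = 0.0131). Irf8 (ENSMUSG00000041515.9, chromosome 8 from 120736358 to 120756694, plus strand) had 306, 219 and 265 CPM in microglia and 364, 347 and 325 CPM in macrophages, the smallest difference that passed the test (-0.43 ± 0.14, adjusted p = 0.0371). The Irf8 call was lost in 5 of 6 fits that left out a library, with adjusted p of 0.101 and 0.0777 without the macrophages of mice 1 and 2, 0.0656 without those of mouse 3, and 0.0577 and 0.0600 without the microglia of mice 2 and 3.

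The scaling bears on these differences. With raw library totals in place of TMM, the median of all genes moved from 0.04 to 0.36 in favour of microglia. Mef2c, Bhlhe41, Spi1, Runx1 and Cebpa were still called, with log2 differences of 2.02, 0.92, -0.39, -0.69 and -0.86. Irf8 (-0.11, adjusted p = 0.520, edgeR) and Mef2a (-0.56, adjusted p = 0.0647) were not. Maf and Klf2 had -0.07 ± 0.20 and 0.11 ± 0.19 with TMM and 0.24 and 0.42 with raw totals, so the sign of Maf depended on the scaling.

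**Figure D2:**
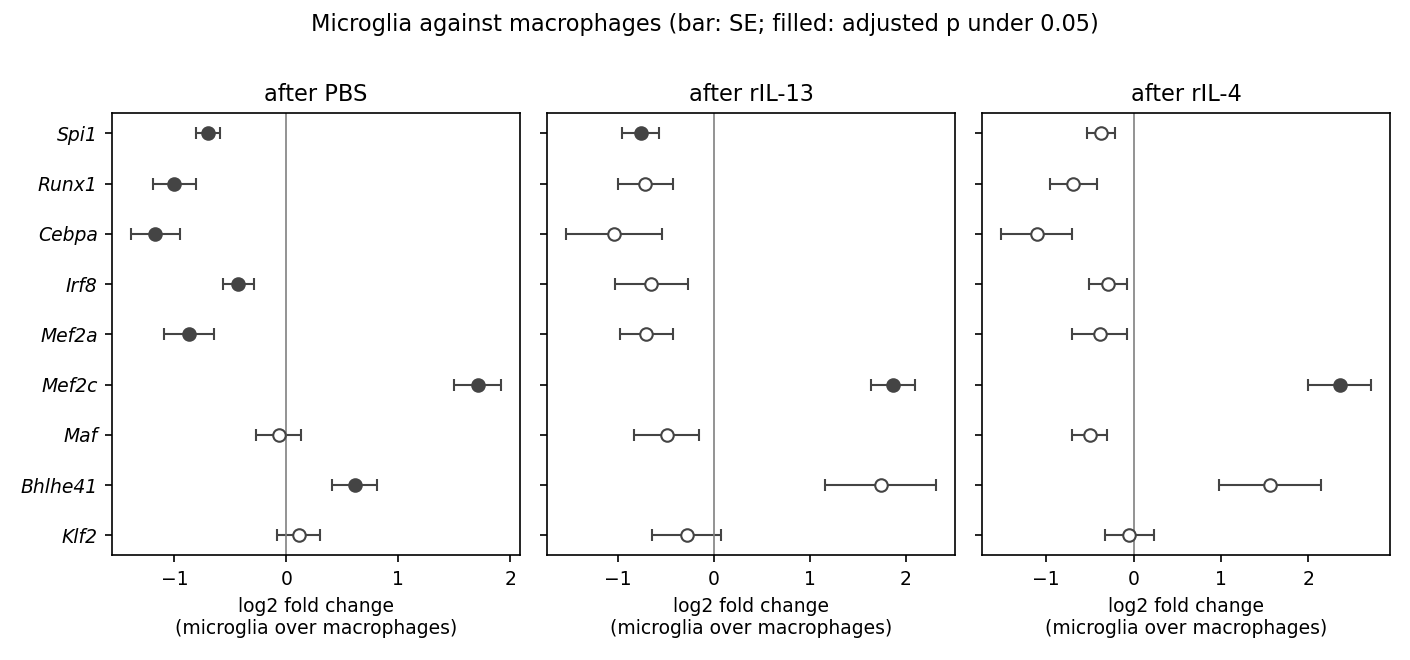
Log2 fold change of microglia over macrophages (horizontal axes) for each gene after PBS, rIL-13 and rIL-4, with the standard error as a bar and filled points for an adjusted p under 0.05 in edgeR. Mef2c was the only gene called after all 3 treatments, at 1.71, 1.87 and 2.36, and Bhlhe41 was to the right of 0 in each panel.

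Among rIL-13 mice, 2 of the 9 genes differed between the cell types, where 26.5% of genes did: Mef2c was higher in microglia (1.87 ± 0.23, adjusted p = 0.00138, edgeR) and Spi1 was higher in macrophages (-0.76 ± 0.19, adjusted p = 0.0246). Among rIL-4 mice, Mef2c alone was called (2.36 ± 0.36, adjusted p = 0.00350), where 23.1% of genes were. Since both libraries of a pair came from the same mouse, a fit with the mouse as a block was also made. It called 4 genes after rIL-13, adding Bhlhe41 (1.74, adjusted p = 0.0129) and Mef2a (-0.66, adjusted p = 0.0419), and 3 after rIL-4, adding Bhlhe41 (1.69, adjusted p = 0.00915) and Cebpa (-1.06, adjusted p = 0.0179). Over all genes, the block fit called 2119 as higher and 1374 as lower in microglia after rIL-13, of 13906 tested, and 1491 and 1243 of 13576 after rIL-4. Libraries stood clear of each other for 3 of the 9 genes after rIL-13, as for 45.3% of all genes, and for 3 after rIL-4, as for 41.5%. The call of Spi1 after rIL-13 was lost with raw library totals (-0.35, adjusted p = 0.226) and without either library of mouse 6 or of mouse 7 (0.0518 to 0.0617). Without the microglia of mouse 6, the library rich in fibroblast and pericyte RNA, Mef2c (2.03, adjusted p = 8.66e-04) and Bhlhe41 (2.09, adjusted p = 0.0212) were the members called, where 2453 of 14521 genes were called as higher in microglia and 1442 as lower.

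Within each mouse, the order of the cell types was counted for the 9 genes alone, and not over all genes. Mef2c was higher in the microglia of 9 of 9 mice, with log2 ratios from 1.37 in rIL-13 mouse 6 to 2.61 in rIL-4 mouse 10. Bhlhe41 was also higher in the microglia of 9 of 9 mice, with log2 ratios from 0.54 to 2.53. Spi1, Runx1, Cebpa, Irf8 and Mef2a were higher in the macrophages of 9 of 9 mice, while Maf was higher in the microglia of 3 mice and Klf2 in those of 4. With CPM of raw library totals, Mef2c and Bhlhe41 were still higher in the microglia of 9 mice and Spi1 in those of none, but Runx1 and Cebpa were then higher in the microglia of 1 mouse each, Irf8 of 2 and Mef2a of 4.

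**Figure D3:**
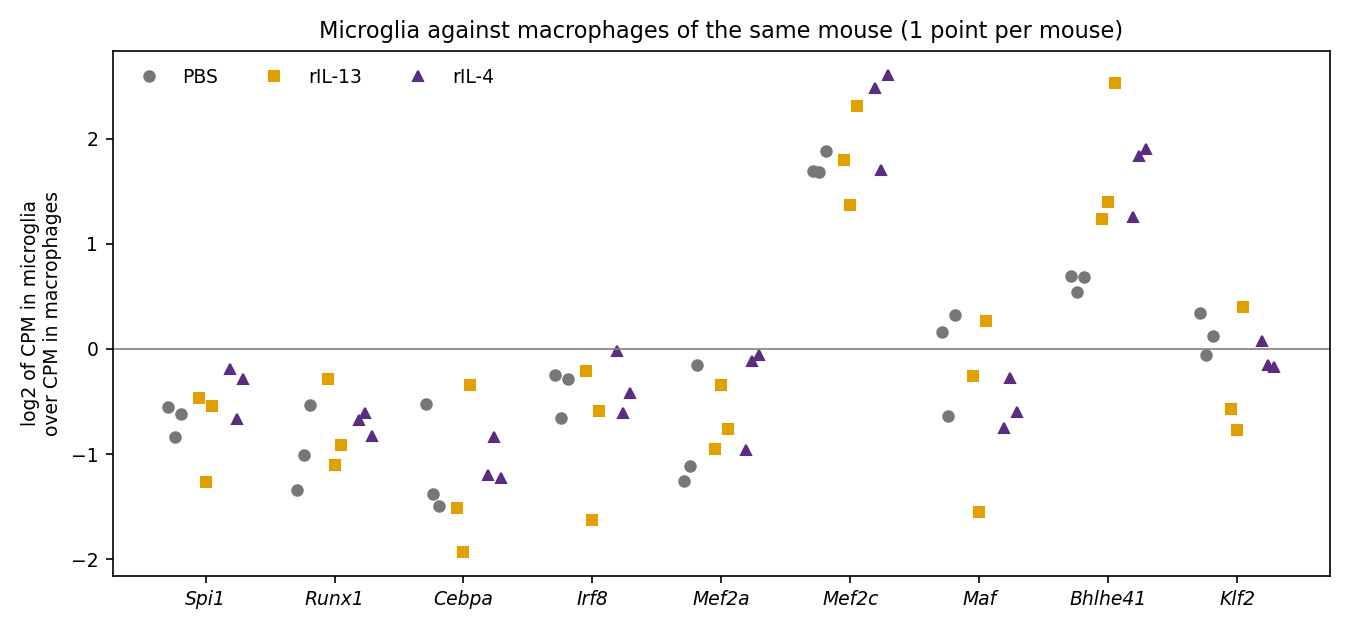
Log2 ratio of CPM in microglia to CPM in macrophages of the same mouse (vertical axis) for each gene, with 1 point per mouse and the treatments by colour and shape. All 9 points of Mef2c (1.37 to 2.61) and of Bhlhe41 (0.54 to 2.53) were above 0, and those of Spi1, Runx1, Cebpa, Irf8 and Mef2a were below 0.

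In macrophages, rIL-4 lowered 3 of the 9 genes, Bhlhe41, Mef2c and Irf8, and raised none. Of the 13606 genes tested, 13.9% were called, 7.14% as lower. The median log2 change over the 9 genes was -0.22, beside 0.02 over all genes. Mef2c had 49.8, 33.5 and 38.5 CPM after PBS and 15.3, 10.5 and 10.8 CPM in rIL-4 mice 8, 9 and 10. The highest rIL-4 library was below the lowest PBS library, and Mef2c fell by 1.73 ± 0.21 on the log2 scale (adjusted p = 6.00e-04, edgeR). Bhlhe41 had 85.2, 60.3 and 75.9 CPM after PBS and 18.2, 4.41 and 8.02 CPM after rIL-4, and fell by 2.84 ± 0.58 (adjusted p = 0.0120). Irf8 had 364, 347 and 325 CPM after PBS and 243, 203 and 244 CPM after rIL-4, and fell by 0.59 ± 0.13 (adjusted p = 0.0151). Of the 9 genes, 4 had no overlap between the libraries of rIL-4 and PBS (these 3 and Maf), as had 34.7% of all genes.

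The fall of Mef2c was called in every fit that left out a library (-1.93 to -1.57). Irf8 was not called without PBS mouse 1 (adjusted p = 0.0515, edgeR) or with all 18 libraries in a single model (0.340), and Bhlhe41 was not called without rIL-4 mouse 10 (0.0603) or with every gene that had a count (0.0630), with log2 changes from -2.50 without mouse 9 to -3.58 without mouse 8. The 8 microglia markers fell in the same libraries, all 8 past the test and with a median log2 change of -3.73. Gpr34, Siglech and Sall1 fell most, with log2 changes of -4.26, -4.16 and -4.14. Of the 6 endothelial markers, 2 rose and 3 fell in these macrophages, and their summed level was 44.2 to 52.0 CPM after PBS and 205 to 429 CPM after rIL-4. Most of the sum after rIL-4 was Pecam1 (means of 8.49 CPM after PBS and 222 after rIL-4) and Flt1 (6.38 and 64.7). Kdr, Cldn5 and Tek had lower means after rIL-4 than after PBS (6.22 and 30.5 CPM for Kdr). Of 7 markers of monocyte-derived macrophages, 2 rose, with a summed level of 3871 to 6015 CPM after PBS and 90558 to 115999 after rIL-4. Most of that sum was Chil3, with means of 2719 and 95918 CPM. The part of these lists in the fall of Mef2c and Bhlhe41 in macrophages was not tested.

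After rIL-13, macrophages had lower Bhlhe41 and Mef2c, 2 of the 9 genes, where 4.09% of genes were called and 1.63% as lower. Bhlhe41 had 21.5, 6.33 and 9.87 CPM in mice 5, 6 and 7 and fell by 2.55 ± 0.57 (adjusted p = 0.0415, edgeR). Mef2c had 23.7, 21.7 and 18.7 CPM and fell by 0.92 ± 0.21 (adjusted p = 0.0358). Irf8 had 252, 215 and 253 CPM, all below the PBS libraries, as was found with this cytokine for 24.5% of genes, but did not pass the test (-0.52 ± 0.13, adjusted p = 0.0579), although DESeq2 called it (0.00353). Both rIL-13 calls rested on most of the libraries. Mef2c was not called without PBS mouse 1 or 3 or without any 1 of the rIL-13 mice (0.0669 to 0.113), and Bhlhe41 was not called without any 1 of the PBS mice or without rIL-13 mouse 6 or 7 (0.0530 to 0.150), while without rIL-13 mouse 5 it fell by 3.18 (0.0165). Of the microglia markers, 2 of 8 fell, with a median log2 change of -1.40 over the list, and of the endothelial markers, 2 rose and 1 fell. Of the 7 markers of monocyte-derived macrophages, 2 rose, with a summed level of 60486 to 83154 CPM, most of it Chil3 (mean 62716 CPM). The rIL-13 macrophages of mouse 6 had 2706 CPM of neutrophil markers, where mice 5 and 7 had 473 and 452 CPM, and also had the highest Spi1 (435 CPM) and Maf (54.9 CPM) of all libraries. Without that library, Mef2c had a log2 change of -0.92 (adjusted p = 0.0693, edgeR) and Bhlhe41 of -2.22 (0.0530). The part of these markers in the rIL-13 values was not tested.

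In microglia, none of the 9 genes passed the test with either cytokine, by edgeR's quasi-likelihood test. With rIL-4, 2.20% of the 15566 genes tested were called, and with rIL-13 0.366%. At an unadjusted p under 0.05 there were 2 of the 9 genes with each cytokine, Bhlhe41 and Mef2c, and DESeq2 called these 2 with rIL-4 and 0 with rIL-13. Over all 15566 genes, 2509 with rIL-4 and 1204 with rIL-13 were under that unadjusted p, and DESeq2 called 547 as higher and 668 as lower with rIL-4 and 187 and 135 with rIL-13. Bhlhe41 had 138, 87.8 and 122 CPM in PBS microglia, 51.0, 16.7 and 56.9 CPM in rIL-13 microglia and 43.5, 15.8 and 30.0 CPM in rIL-4 microglia of mice 8, 9 and 10. No cytokine library reached the lowest PBS library. The log2 change was -1.94 ± 0.49 with rIL-4 (adjusted p = 0.0844, edgeR) and -1.47 ± 0.48 with rIL-13 (adjusted p = 0.466). For rIL-4 the adjusted p was 7.08e-04 in DESeq2 and 0.0474 with all 18 libraries in a single edgeR model, and lay between 0.0829 and 0.271 when a library was left out.

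Mef2c had 160, 107 and 142 CPM in PBS microglia, 82.4, 56.3 and 92.8 CPM after rIL-13 and 85.7, 34.0 and 66.0 CPM after rIL-4. Here too every cytokine library was below every PBS library. The log2 change was -1.12 ± 0.33 with rIL-4 (adjusted p = 0.137, edgeR) and -0.81 ± 0.33 with rIL-13 (adjusted p = 0.598). DESeq2 gave an adjusted p of 0.0143 for rIL-4, and the model of all 18 libraries gave 0.0295. The libraries of a cytokine stood clear of those of PBS for 4 of the 9 genes with rIL-4, as for 25.9% of all genes, and for 4 with rIL-13, as for 16.0%. The 4 were Bhlhe41, Mef2c and Klf2 with both cytokines, Spi1 with rIL-4 and Irf8 with rIL-13. The microglia markers had a median log2 change of -1.49 with rIL-4, with 2 of 8 called (Tmem119 and Olfml3), and of -0.95 with rIL-13, with none called. Their summed level was 5455 to 9786 CPM in PBS microglia, 2547 to 6562 after rIL-13 and 2383 to 4084 after rIL-4. In the same libraries, 2 of 7 markers of monocyte-derived macrophages rose with each cytokine, with a summed level of 745 to 1041 CPM after PBS, 5540 to 7896 after rIL-13 and 12651 to 22428 after rIL-4. After either cytokine most of that sum was Chil3, a gene that IL-4 and IL-13 are known to induce, with means of 127 CPM after PBS, 5386 after rIL-13 and 17337 after rIL-4. The sum of the fibroblast and pericyte markers was 2311 to 3188 CPM after PBS and 206 to 1489 after rIL-4, with 1 of 8 called as lower. The sum of the 6 endothelial markers was 715 to 1568 CPM after PBS, 1343 to 2350 after rIL-13 and 1695 to 2253 after rIL-4, with none called by edgeR with either cytokine. That sum was higher in every rIL-4 library than in any PBS library, the opposite direction to Mef2c, but the markers did not all move one way. At an unadjusted p under 0.05 with rIL-4 there were 4 of the 6, Pecam1 (log2 change 1.04), Flt1 (0.91) and Cldn5 (0.90) with higher values and Kdr (-1.30) with lower, and with rIL-13 there was 1, Pecam1 (0.90). The part of these lists in the values of Bhlhe41 and Mef2c was not tested. Without the rIL-13 microglia of mouse 6, the log2 change with rIL-13 was -1.09 for Bhlhe41 (adjusted p = 0.602, edgeR), -0.63 for Mef2c (0.792) and -0.44 for Irf8 (0.820).

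**Figure D4:**
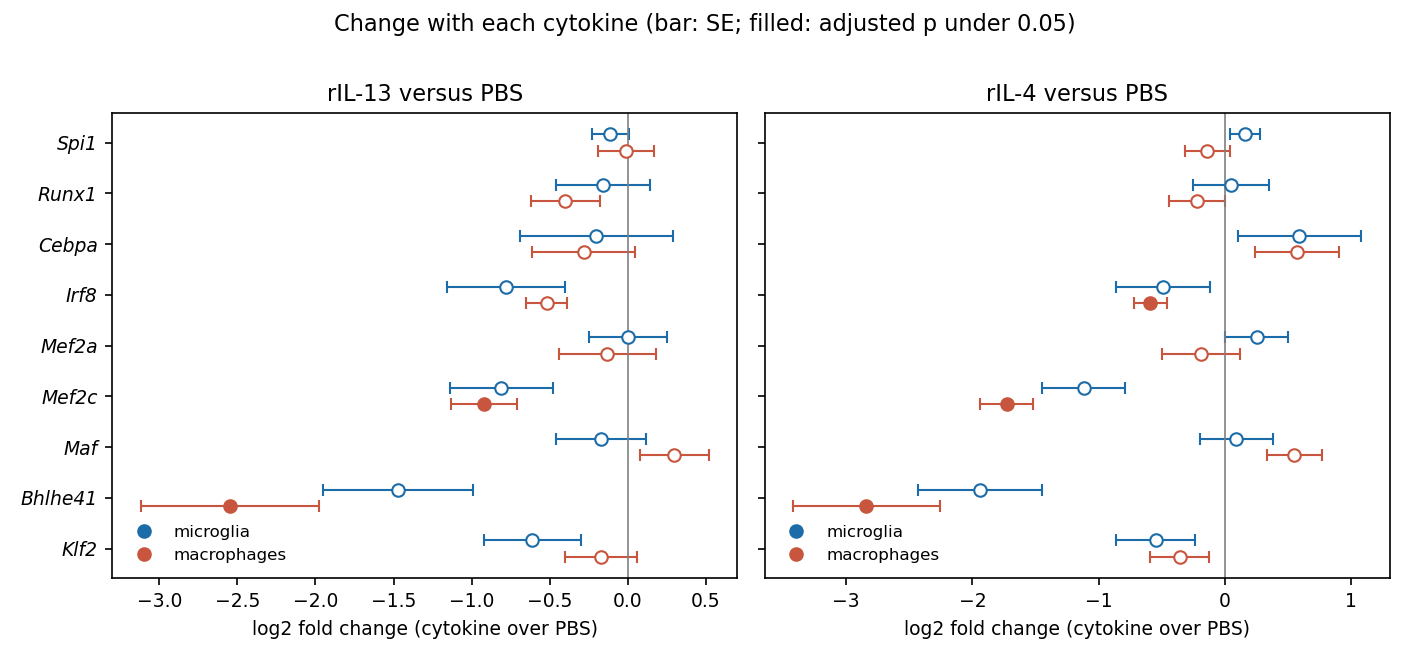
Log2 fold change of rIL-13 over PBS and of rIL-4 over PBS (horizontal axes) for each gene in microglia (blue) and macrophages (red), with the standard error as a bar and filled points for an adjusted p under 0.05 in edgeR. Bhlhe41 and Mef2c were left of 0 in both cell types with both cytokines, with filled points in macrophages and open points in microglia.

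Irf8 in microglia spread widely, with 306, 219 and 265 CPM after PBS, 219, 69.5 and 168 CPM after rIL-13 and 239, 132 and 182 CPM after rIL-4. The highest rIL-13 library and the lowest PBS library were both at 219 CPM when rounded. The log2 change was -0.78 ± 0.38 with rIL-13 (adjusted p = 0.704, edgeR) and -0.49 ± 0.37 with rIL-4 (adjusted p = 0.618).

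The other genes did not pass the test with either cytokine in either cell type. Spi1 ranged from 180 to 249 CPM in microglia and from 270 to 435 CPM in macrophages, and its log2 changes lay between -0.14 and 0.16 with standard errors of at most 0.18. Runx1 ranged from 15.2 to 34.3 CPM in microglia and from 32.6 to 61.0 CPM in macrophages. Mef2a, the other MEF2 factor, had log2 changes of 0.25 ± 0.25 with rIL-4 in microglia and -0.19 ± 0.31 in macrophages. Cebpa had its highest mean after rIL-4 in both cell types, 19.7 ± 6.85 CPM in microglia and 43.2 ± 19.0 CPM in macrophages, but its libraries overlapped those of PBS (0.59 ± 0.49 and 0.57 ± 0.33, adjusted p of 0.657 and 0.295, edgeR).

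Maf (ENSMUSG00000055435.6, chromosome 8 from 115682942 to 115707794, minus strand) had 28.9, 36.8 and 28.6 CPM in PBS macrophages and 45.1, 46.9 and 46.5 CPM in rIL-4 macrophages. These groups did not overlap, yet the change of 0.55 ± 0.22 did not pass the test (adjusted p = 0.125, edgeR), while it passed when the fit was limited to the 6 libraries compared (0.0383). Klf2 (ENSMUSG00000055148.7, chromosome 8 from 72319033 to 72321656, plus strand) was low, between 7.44 and 20.1 CPM in all libraries, with log2 changes of -0.55 ± 0.31 with rIL-4 and -0.61 ± 0.31 with rIL-13 in microglia (adjusted p of 0.438 and 0.733).

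Between the cytokines, none of the 9 genes passed the test in microglia, where 0.0385% of genes did, or in macrophages, where 0.250% did. At an unadjusted p under 0.05 there were 0 in microglia and 2 in macrophages (Mef2c and Cebpa), and DESeq2 called 0 and 1. Over all genes, 1720 of 15566 in microglia and 1510 of 13606 in macrophages were under that unadjusted p, and DESeq2 called 152 as higher with rIL-4 and 405 as lower in microglia and 164 and 256 in macrophages. In microglia, 1 of the 9 genes, Spi1, stood clear between the cytokines, as did 12.3% of all genes. The gene called by DESeq2 in macrophages was Mef2c, which had 10.5 to 15.3 CPM in rIL-4 macrophages and 18.7 to 23.7 CPM in rIL-13 macrophages. These did not overlap, as for 14.4% of all genes, and the log2 change was -0.81 ± 0.21 (adjusted p = 0.158 in edgeR and 0.0181 in DESeq2). In the order of the group means, Mef2c ran from PBS microglia (136 CPM) through rIL-13 microglia (77.2), rIL-4 microglia (61.9), PBS macrophages (40.6) and rIL-13 macrophages (21.4) to rIL-4 macrophages (12.2), and the neighbours that overlapped were rIL-13 with rIL-4 microglia and rIL-4 microglia with PBS macrophages. Bhlhe41 ran from PBS microglia (116) through PBS macrophages (73.8), rIL-13 microglia (41.5), rIL-4 microglia (29.8) and rIL-13 macrophages (12.6) to rIL-4 macrophages (10.2), and only the PBS groups stood clear of the next group in the order. The comparisons of rIL-4 and of rIL-13 with PBS share their PBS libraries.

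Whether a cytokine acted differently in the 2 cell types was tested by an interaction term over all 18 libraries. None of the 9 genes passed for rIL-4 or for rIL-13 in edgeR, where 0.998% and 0.0242% of 16535 genes did, none had an unadjusted p under 0.05 and DESeq2 called none. Over all 16535 genes, 2042 for rIL-4 and 965 for rIL-13 were under that unadjusted p, and DESeq2 called 396 as higher and 293 as lower for rIL-4 and 72 and 82 for rIL-13. For rIL-4, the change of Mef2c in microglia minus that in macrophages was 0.59 ± 0.40 (adjusted p = 0.644) and that of Bhlhe41 was 0.89 ± 0.76 (adjusted p = 0.754). So the calls of Mef2c and Bhlhe41 in macrophages and their absence in microglia were not shown to be a difference between the cell types.

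**Figure D5:**
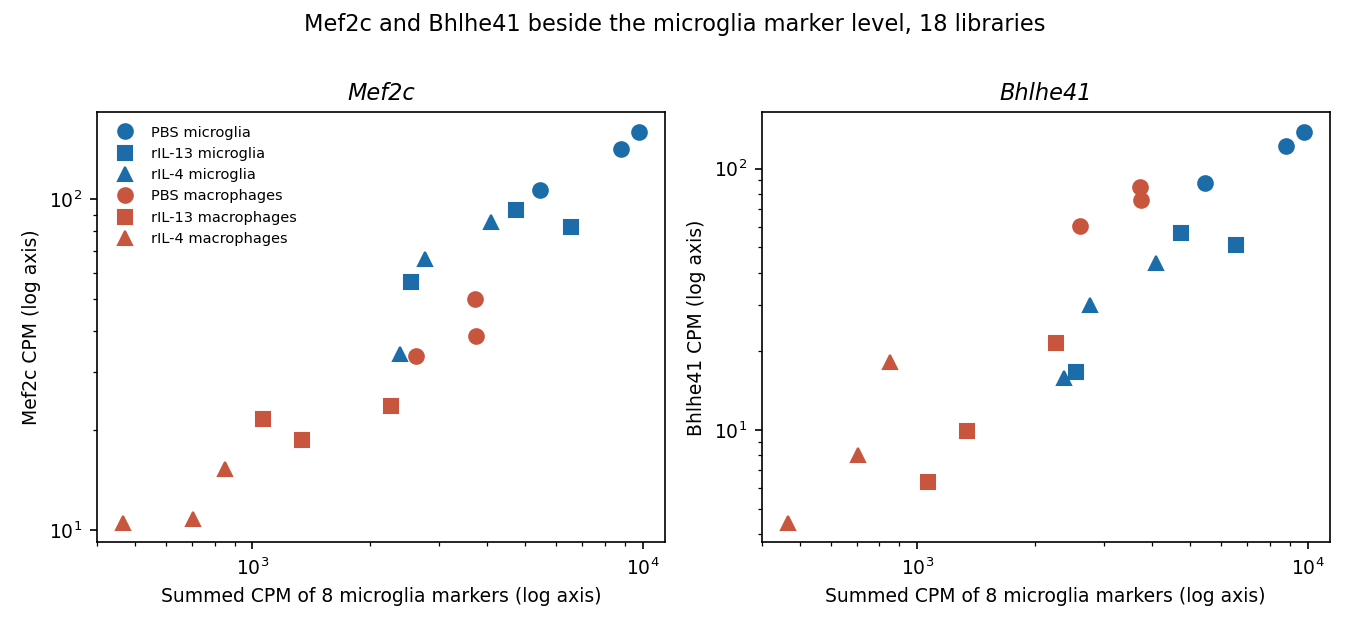
CPM of Mef2c and of Bhlhe41 (vertical axes, log scale) against the summed CPM of 8 microglia markers (horizontal axes, log scale) in the 18 libraries, with microglia in blue, macrophages in red and the treatments by shape. The rIL-4 macrophages had 465 to 849 CPM of the markers and the lowest Mef2c (10.5 to 15.3 CPM), and the PBS microglia had 5455 to 9786 CPM and the highest (107 to 160 CPM).

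Both libraries of a mouse were also compared by which mouse of a group had the lowest level. After rIL-4, the mouse with the lowest level among the 3 was the same in microglia and macrophages for 9 of the 9 genes, where it was the same for 40.9% of all genes. It was mouse 9 for 7 genes and mouse 8 for Maf and Spi1, and the 9 genes of a library share its depth and scaling. The agreement was 5 of 9 after rIL-13 (41.9% of all genes) and 3 of 9 after PBS (37.1%).

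Relatives of these factors were described from a list of 37 genes, of which 32 were tested in each cell type. In macrophages, 5 rose and 1 fell with rIL-4, where 13.9% of all genes were called. The largest rises were in Irf4, a relative of Irf8 that acts in alternatively activated macrophages (2.52, adjusted p = 7.67e-04, edgeR), Klf9 (1.71, adjusted p = 0.00626) and Klf4 (1.55, adjusted p = 0.00180). Klf12 fell from 0.806 ± 0.0134 CPM after PBS to at most 0.119 CPM (adjusted p = 0.0315). The levels of Irf4 remained low, at 1.47 ± 0.210 CPM after PBS and 8.45 ± 2.12 CPM after rIL-4, against 230 ± 23.6 CPM of Irf8.

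Bhlhe40, the closest relative of Bhlhe41, rose in macrophages, where Bhlhe41 fell. It had 292 ± 18.5 CPM in PBS macrophages, 459 ± 26.0 CPM after rIL-13 and 576 ± 97.7 CPM after rIL-4 (SD, n = 3), and rose by 0.66 (adjusted p = 0.0300, edgeR) and 0.98 (adjusted p = 0.00157) on the log2 scale. In microglia it had 82.7 ± 22.9 CPM after PBS and 169 ± 10.1 CPM after rIL-4. It was the single relative of the 32 called there with rIL-4 (1.05, adjusted p = 0.0362, edgeR), where 2.20% of all genes were. With rIL-13 none of the 32 was called in microglia, where 0.366% of all genes were. In rIL-13 macrophages, 2 of the 32 relatives were called, Bhlhe40 and Irf4 (1.46, adjusted p = 0.0301, edgeR), where 4.09% of all genes were. Over all tested relatives the median log2 change with rIL-4 was 0.16 in macrophages and 0.07 in microglia, beside 0.02 and -0.06 over all genes. After PBS, 14 of the 32 relatives were higher in macrophages, as were 16.4% of all genes, and 4 in microglia, as were 24.5%. The largest differences were in Spic (0.834 to 1.33 CPM in macrophages and no count in microglia), Cebpe (0.767 ± 0.301 and 0.0287 ± 0.0498 CPM) and Runx3 (28.5 ± 3.53 CPM in macrophages, a log2 difference of -3.30) on the macrophage side, and Klf15 (no count in macrophages and 1.40 ± 1.35 CPM in microglia), Klf5 (3.39) and Klf12 (2.84) on the microglia side.

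Of 15 partners and antagonists, 13 were tested in macrophages, and with rIL-4 1 rose and 3 fell, again beside 13.9% of all genes called. Batf3, which works with IRF8 in dendritic cells, rose by 2.93 (adjusted p = 6.51e-04, edgeR). Id3, Hdac9 and Id2 fell by 2.32, 1.09 and 0.99. HDAC9 binds MEF2 proteins and represses their targets, and ID proteins hold E proteins off DNA. With rIL-13, Batf3 rose by 2.48 (adjusted p = 0.00441) and Id2 fell by 0.79 (adjusted p = 0.0145). In microglia Id3 fell with rIL-4 (-1.87, adjusted p = 0.0266, edgeR), where 2.20% of all genes were called. None was called with rIL-13, where 0.366% of all genes were. Id3 had 132 ± 27.4 CPM in PBS microglia, 35.4 ± 2.40 in rIL-4 microglia and 3.59 ± 0.417 in PBS macrophages. The summed fibroblast and pericyte markers were also lower in the rIL-4 microglia, and their part in the fall of Id3 was not tested.

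Of 23 other lineage factors, 21 were tested in each cell type. With rIL-4, 7 fell and 2 rose in macrophages, where 7.14% of all genes were called as lower. None of the 21 was called in microglia with either cytokine, where 2.20% of all genes were with rIL-4 and 0.366% with rIL-13. Sall1, the factor that defines microglia, had 10.0 ± 5.48 CPM in PBS macrophages and 0.566 ± 0.127 CPM in rIL-4 macrophages and fell by 4.14 (adjusted p = 8.98e-04, edgeR). Smad3, which carries the TGF-β signal that microglia depend on, fell by 1.84 (adjusted p = 2.27e-04), and Lyl1 fell by 1.10. Tfec and Smad4 rose by 2.34 and 1.07. With rIL-13, Lmo2 and Smad3 fell by 1.19 and 1.09 and Tfec rose by 2.32. The median log2 change over this list with rIL-4 was -0.43 in macrophages and -0.24 in microglia. Sall1, which is also among the 8 microglia markers, had 23.4 to 69.6 CPM in PBS microglia.

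Reads were counted without regard to strand, so overlap with other genes was checked in the annotation. The antisense gene that overlaps Bhlhe41 had at most 29 counts in any library and that of Maf at most 4. Lysmd4, on the opposite strand of Mef2a, shares 302 exon bases with it and had 5 to 591 counts, against at least 3694 of Mef2a. Irf8 overlaps Gm20388 on the same strand with no shared exon base, and that gene had 274 to 1998 counts against at least 3318 of Irf8. Spi1, Mef2c and Klf2 overlap no other annotated gene.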

How the data were processed

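The authors isolated RNA from each sorted population, made SMART-seq2 libraries (without strand or molecular identifiers), aligned reads with STAR 2.5.3a to GRCm38 and estimated counts per gene with RSEM 1.3.0, per the paper's methods and the submitters' processing notes. The annotation release is not given in the sources used here. The deposited values are expected counts, which were rounded to whole numbers. Genes with low counts were removed with filterByExpr, libraries were scaled by TMM, and groups were compared with edgeR 4.0.16 (quasi-likelihood, R 4.3.3) with Benjamini-Hochberg adjustment over all genes tested, at a threshold of 0.05. Cytokine comparisons were fitted on the 9 libraries of a cell type, comparisons of the cell types on 6 libraries and interactions on all 18. The standard error was the log2 change divided by the root of F. DESeq2 1.42.0, another scaling, other filters, other sets of libraries, each library left out in turn and a block for the mouse were the alternatives. Raw library totals in edgeR were added as an alternative after the data had been seen.

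Same-numbered libraries come from the same mouse. Their deviations from the group means correlated at 0.05 to 0.20 across genes.

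Positions and exon lengths came from a GENCODE annotation of GRCm38 (1-based), and promoter windows from RefSeq on GRCm38.p6. All 9 genes were described in every comparison. Of the genes on the other lists, those past the threshold with the largest change were named, with relatives or markers that a result turned on. The members and lists were chosen with earlier results of these data known. Oligodendrocyte, astrocyte, neuron, neutrophil and lymphocyte markers were also summed, and their highest sums in any library were 228, 123, 16.8, 2706 and 0.915 CPM. Some items are not reported here.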

Additional observations from a re-analysis of the deposited data

How the results depend on the processing

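No result changed direction past its threshold. The count of the 9 genes called with rIL-4 in microglia was 0 and became 2 by DESeq2, 2 in a model of all 18 libraries, and 1 when each library had to hold at least 10 counts. Over all genes, the model of 18 libraries called 489 as higher and 449 as lower of 16535. The filter of 10 counts gave 250 and 148 of 11089. The count with rIL-13 in macrophages, 2, became 1 with every gene that had a count and 1 with all 18 libraries, and lay between 0 and 1 when a library was left out. Over all genes, the first of these fits called 314 as higher and 246 as lower of 23333. The fit on 18 libraries called 168 and 97 of 16535. Between the cytokines in macrophages, DESeq2 called 1 where edgeR called 0. Between the cell types, all 18 libraries in a single model gave 3 after PBS (Spi1, Runx1 and Mef2c, where the fit on 6 libraries gave 7), 4 after rIL-13 (2) and 2 after rIL-4 (1), and DESeq2 gave 3 after rIL-4. Over all 16535 genes, the single model called 2574 as higher and 1641 as lower in microglia after PBS. It called 2752 and 2090 after rIL-13, and 2490 and 2064 after rIL-4. After rIL-4, DESeq2 called 2279 and 1692 of 13576 genes. The fit with the mouse as a block, which follows the pairing of both libraries of a mouse, gave 4 after rIL-13 and 3 after rIL-4 and changed no other count past 1.5 times. Leaving out a library gave 5 to 6 after PBS, 1 to 3 after rIL-13 and 1 to 2 after rIL-4, 2 to 3 with rIL-4 in macrophages, and 0 in the other comparisons. With CPM of raw library totals, 3 of the 9 genes were on 1 side in all 9 mice, where TMM gave 7. No such count was made over all genes under either scaling. Raw totals also moved the split of all genes called after PBS from 3601 higher and 2414 lower in microglia to 4902 and 1385, after rIL-13 from 2380 and 1312 to 3492 and 656, and after rIL-4 from 1796 and 1334 to 1970 and 905. The split of rIL-4 against PBS in microglia went from 217 higher and 125 lower to 131 and 156, that of rIL-13 against PBS in macrophages from 335 and 222 to 238 and 327, and that of rIL-4 against rIL-13 in macrophages from 3 and 31 to 8 and 28. The causes of these shifts were not tested. Over all genes, DESeq2 called 547 higher and 668 lower with rIL-4 in microglia, where edgeR called 217 and 125. Single-gene values were followed for 25 pairs of a gene and a comparison. These pairs were called in the main fit or in an alternative other than a left-out library. Of their values under an alternative, 260 kept their direction and side of the threshold, 37 lost the call and 28 gained it. With 3 mice a group, the standard error of the microglia changes was 0.12 for Spi1 and 0.49 for Bhlhe41.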

Other observations

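A list of 25 genes that textbooks give as targets of these factors was also measured. In macrophages, 24 were tested, and with rIL-4 9 fell and 1 rose, with a median log2 change of -0.70 beside 0.02 over all genes, of which 13.9% were called and 7.14% as lower. S1pr1, a target of KLF2 and a receptor for sphingosine 1-phosphate, had 83.1 ± 14.5 CPM after PBS and 17.4 ± 11.6 CPM after rIL-4 (SD, n = 3) and fell by 2.25 (adjusted p = 0.0374, edgeR), while Klf2 itself did not pass the test. Msr1, a scavenger receptor, fell by 1.51 (adjusted p = 4.48e-04) and C1qc, a complement subunit, by 1.43 (adjusted p = 7.86e-04). Tlr4, the receptor for lipopolysaccharide, was the gene that rose (0.80, adjusted p = 0.0180). With rIL-13, Cybb, a subunit of the phagocyte oxidase, and Msr1 fell by 1.29 and 0.76. In microglia, 23 were tested, and with rIL-4 Itgam, Cd14 and Fcgr1 fell by 1.29, 1.27 and 1.20, with adjusted p of 0.0393, 0.0423 and 0.0292, where 2.20% of all genes were called. After PBS, 14 of 24 were higher in macrophages, as were 16.4% of all genes, among them Lyz2 (-3.00), and 5 in microglia, as were 24.5%, among them Cst3, C1qa and Csf1r (1.18, 0.84 and 0.82). The list mixes targets of several factors and was not tested as a set.

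Genes with the most alike levels were found by Pearson's r of log2(CPM + 1) over the 18 libraries, among 16535 genes. Golm1 (0.98) and Tln2 (0.97) were the closest to Mef2c, and Abi3 (0.97) and Slamf9 (0.96) to Bhlhe41. Arpc5 (0.96) was close to Spi1, Rgs2 (0.96) and Laptm5 (0.95) to Irf8, Cflar (0.95) and Myo1f (0.94) to Runx1, and Arl8b (0.93) and Slc6a8 (0.91) to Cebpa. Maf and Klf2 had no gene above 0.79, with Gm3839 and Tcf7l2 (both 0.79) and with Atmin (0.79) and Ptges3 (0.77). The 18 libraries share their cell type and mouse, so these values are a description with no test.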
